A study of Mus musculus with 2 samples.

Results

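Cited4-positive, Kit-negative and Eomes-negative cells with transcripts of the receptors Klrc1 or Ncr1 were studied among the non-parenchymal cells of mouse liver, which are the cells left once hepatocytes have been removed. Single-cell RNA sequencing counted unique molecular identifiers (UMIs), each standing for 1 captured transcript, by gene and cell. A first library came from PKM2ΔMAC mice (ΔMAC), named for a loss in macrophages of PKM2, a product of the pyruvate kinase gene Pkm. The other came from PKM2FL/FL mice (FL/FL), which carry the floxed allele. Both groups had eaten an MCD diet, short of methionine and choline and used to bring about a fatty and scarring liver, for 8 weeks. Each genotype had 1 library, while neither the count of mice pooled nor the driver of Cre is stated in these sources. Differences between the genotypes therefore describe 2 libraries, have no replicate check and received no test. Intervals in the text are at 95% and cover counting error only.

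The cells were selected on their own counts: at least 1 Cited4 UMI, at least 1 UMI of Klrc1 or Ncr1, 0 of Kit, Eomes and the Cd3 genes Cd3d, Cd3e and Cd3g, and fewer than 3 in all of the division genes Mki67, Top2a and Birc5. They numbered 649 of 18867 cells kept, with 273 in the ΔMAC library and 376 in the FL/FL library. Since the rule chose them by measured values, their levels of these genes are a description and support nothing. No member barcode occurred in both libraries, while 17 barcodes of other cells did.

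Group 1 innate lymphoid cells (ILC1) and natural killer (NK) cells are lymphocytes without rearranged antigen receptors that release interferon gamma and, to differing degrees, kill target cells. In mouse liver the ILC1 stay in the tissue and depend on the transcription factor T-bet (Tbx21), while NK cells circulate and carry Eomes and Ly49 receptors of the Klra family. Cited4 encodes a transcriptional co-activator that binds CBP and p300 and carries no DNA-binding domain. Klrc1 encodes the inhibitory receptor NKG2A, Ncr1 the activating receptor NKp46, and Kit the receptor of stem cell factor.

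Members were sequenced at a median of 5155 UMIs and 1884 genes per cell in the ΔMAC library and of 5687.5 UMIs and 2096 genes in the FL/FL library. Their summed UMIs came to 1456103 in the ΔMAC library and 2365638 in the FL/FL library. A pair of FL/FL members stood apart. They held 84812 and 29832 UMIs, or 4.85% of all FL/FL member UMIs, and carried bile duct and hepatocyte transcripts, among them 1671 and 710 UMIs of Spp1. They had entered on 1 Klrc1 UMI and 1 Ncr1 UMI, and neither held a UMI of Nkg7, a granule gene of killer lymphocytes. These cells were found after the values had been seen and are called bile duct-like below, and values that rest on them are given with and without them. Scrublet, a caller of droplets holding more than 1 cell, marked neither of them, and marked 14 ΔMAC and 19 FL/FL members.

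Transcripts of other cell classes were present among the members. At least 2 UMIs over the marker lists of B cells, neutrophils and monocytes or macrophages occurred in 53.1% of ΔMAC members and 55.1% of FL/FL members. The summed neutrophil list (all 5 genes) stood at 1179.9 CPM (UMIs per 1000000 UMIs of the population) in ΔMAC members and 922 CPM in FL/FL members. A large part of each sum lay in 1 cell, which held 717 UMIs of the list in the ΔMAC and 919 in the FL/FL library. The 5 B-like genes stood at 622 and 679 CPM, of which Cd74, a class II antigen presentation gene, made up 510.3 and 532 CPM. The monocyte or macrophage list (8 genes) stood at 35.7 CPM in ΔMAC members, with Lyz2 at 0, and at 451 CPM in FL/FL members, with Clec4f at 0. Values without the members that held at least 2 such UMIs are given beside the results they turned or moved. The ratio of member shares of all cells kept, given below as 0.817, was 0.852 without them.

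Cited4 (ENSMUSG00000070803, chromosome 4, 120666572 to 120667820, plus strand, mm10) was detected across the innate lymphoid cells and was not particular to the members' gate. Among Klrc1 or Ncr1 cells with neither Kit, Eomes nor Cd3, a Cited4 UMI was seen in 29.6% (26.7 to 32.7) of 922 ΔMAC cells and 33.2% (30.5 to 36.0) of 1132 FL/FL cells. Kit-positive cells, which were deeper at medians of 5471 and 5987.5 UMIs, had it in 38.2% of ΔMAC and 48.3% of FL/FL cells. Eomes-positive cells without S1pr5 and Cma1, genes of mature NK cells, had it in 23.9% of ΔMAC and 27.6% of FL/FL cells, and those with S1pr5 or Cma1 in 26.3% and 24.3%.

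**Figure D1:**
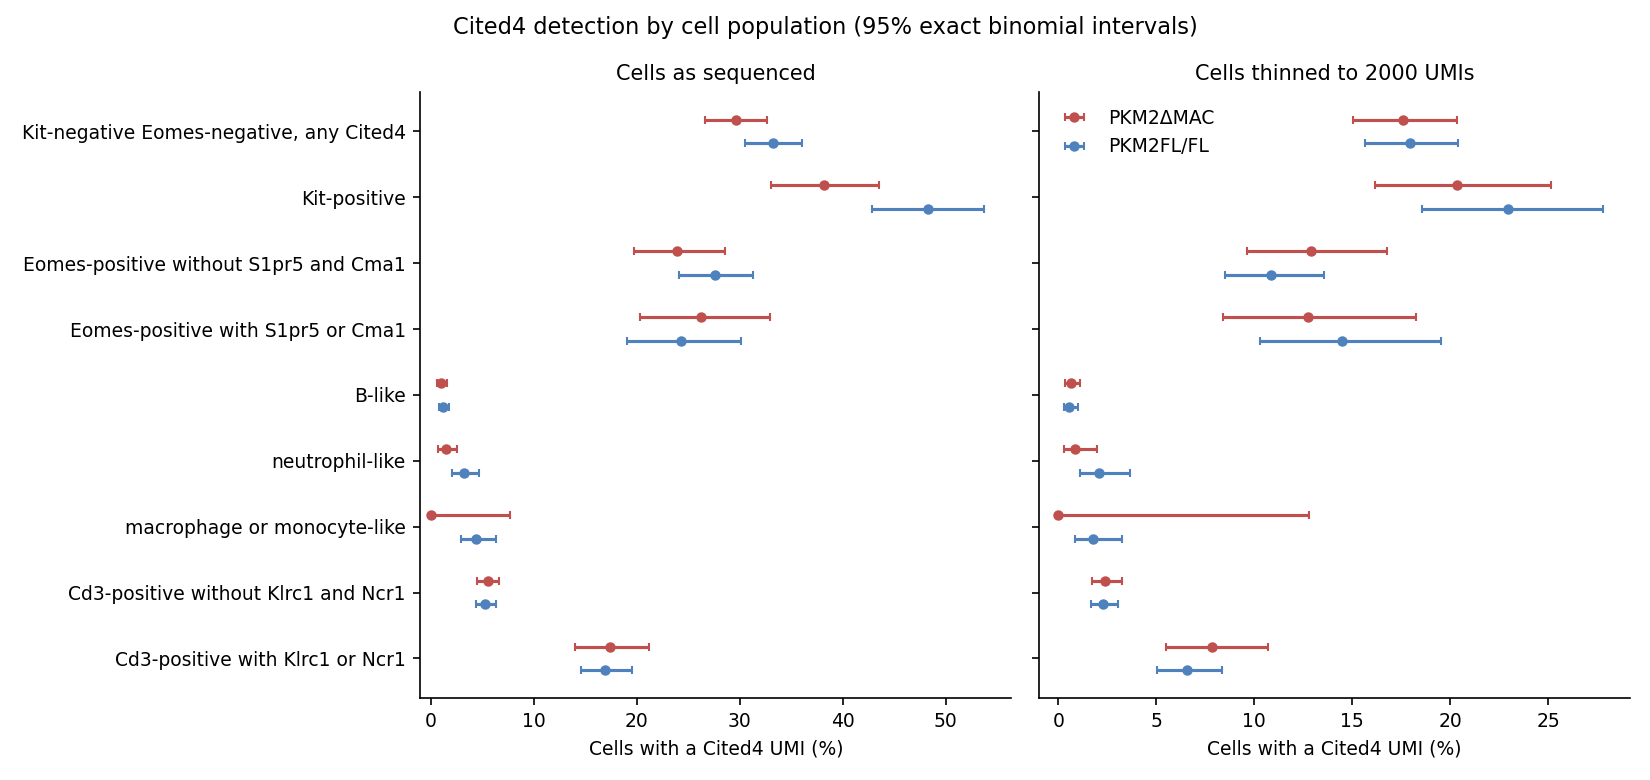
Share of cells with a Cited4 UMI (horizontal axis, %) in each cell population (vertical axis), as sequenced on the left and after each cell was thinned to 2000 UMIs on the right. Points are libraries, PKM2ΔMAC above PKM2FL/FL, and bars are 95% exact binomial intervals. The innate lymphoid populations lie between 23.9% and 48.3% as sequenced, and B-like cells near 1%.

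B-like cells, which should lack Cited4, had a UMI in 1.03% of ΔMAC and 1.23% of FL/FL cells. Their median depths were 2784 and 3210 UMIs, and those of the Kit-negative and Eomes-negative cells 4467 and 4950 UMIs. Neutrophil-like cells had one in 1.45% of ΔMAC and 3.22% of FL/FL cells. Macrophage or monocyte-like cells had one in 0 of 46 ΔMAC cells and 4.40% of 636 FL/FL cells. The gate of this class used Csf1r together with Lyz2 or C1qa. Lyz2 had a UMI in 0.404% of ΔMAC and 18.5% of FL/FL B-like cells. Why the gate found few ΔMAC cells was not tested, and the 46 and 636 cells are not read as numbers of macrophages. The innate lymphoid shares thus lay above those of each of these classes. After thinning to 2000 UMIs per cell, the Kit-negative and Eomes-negative cells had a Cited4 UMI in 17.6% of ΔMAC and 17.9% of FL/FL cells, against 0.639% and 0.562% of B-like cells. Thinned Kit-positive cells had one in 20.4% (16.1 to 25.1) of ΔMAC and 22.9% (18.6 to 27.8) of FL/FL cells, intervals that overlap those of the Kit-negative and Eomes-negative cells, 15.1 to 20.3 and 15.7 to 20.4.

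Of all 878 ΔMAC cells with a Cited4 UMI, the members made up 31.1% (28.0 to 34.3), and of all 1220 FL/FL ones 30.8% (28.2 to 33.5). The next shares were Eomes-positive cells, at 16.2% and 19.0%, and Kit-positive cells, at 14.9% and 13.6%. Cd3-positive cells with Klrc1 or Ncr1 made up 9.11% of the ΔMAC and 12.7% of the FL/FL Cited4 cells. Most Cited4 detections outside the members were therefore in other lymphocytes, and B-like, neutrophil-like and macrophage or monocyte-like cells together gave 3.19% in the ΔMAC and 2.46% in the FL/FL library.

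A single Cited4 UMI admitted 170 ΔMAC members (62.3%) and 209 FL/FL members (55.6%), and the highest counts were 8 and 9. The gate had cells close to both sides of its limits. Kit alone kept out 131 ΔMAC and 166 FL/FL cells, of which 83 and 99 held 1 Kit UMI. Eomes alone kept out 142 and 232 cells, of which 69 and 85 held 1 Eomes UMI.

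As a share of all cells kept, members were fewer in the ΔMAC library, and the gap narrowed with a gate on thinned counts. They made up 3.08% (2.73 to 3.46) of 8877 ΔMAC cells and 3.76% (3.40 to 4.16) of 9990 FL/FL cells, a ratio of 0.817 (0.697 to 0.957). The median depth of all cells kept was 3818 UMIs in the ΔMAC and 4527.5 UMIs in the FL/FL library. After thinning, the shares were 2.41% and 2.51%, a ratio of 0.963 (0.789 to 1.17). Of Klrc1 or Ncr1 cells without Cd3, members made up 14.4% (12.8 to 16.0) in the ΔMAC and 15.3% (13.9 to 16.8) in the FL/FL library, with a ratio of 0.936 (0.798 to 1.10).

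Set beside Eomes-positive cells of the same gate, the members were higher in most ILC1-like markers and lower in most NK-like ones. At least 2 UMIs of the NK-like list still occurred in 75.8% of members in each library. That list summed to 2854 CPM in ΔMAC and 1861 CPM in FL/FL members. It summed to 7858 and 7528 CPM in Eomes-positive cells, and to 1040 and 929 CPM in Kit-positive cells. Among 18 measured ILC1-like markers, 15 were at least 25% higher in the members in both libraries and 0 were lower by 20% or more. Among 17 NK-like markers, 16 were lower by that much in both and 0 higher. Of all 9048 genes with at least 20 UMIs in each library's comparison, 8.41% were higher and 5.56% lower by the same limits. These counts include gate genes and describe cells that the gate had already parted by Eomes.

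Il7r, the receptor for the survival cytokine IL-7, stood at 714 CPM in ΔMAC members and 639 CPM in FL/FL members. In Eomes-positive cells with S1pr5 or Cma1 it stood at 99.4 and 52.7 CPM. Cxcr6, a chemokine receptor that holds lymphocytes in the liver sinusoids, had 108 CPM in ΔMAC and 101 CPM in FL/FL members, against 0 and 7.30 CPM in those Eomes-positive cells. Both markers were therefore several-fold higher in members, in each library. Over all Eomes-positive cells Il7r stood at 187 CPM in the ΔMAC and 100.1 CPM in the FL/FL library, a narrower gap, and Cxcr6 at 4.98 and 7.84 CPM.

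Tmem176b, an intracellular ion channel gene, had 383 CPM in ΔMAC and 439 CPM in FL/FL members, against 25.8 and 20.3 CPM in Eomes-positive cells with S1pr5 or Cma1. Cd7, a surface protein of innate lymphocytes, had 634 and 519 CPM, against 284 and 200.3 CPM. Tnfsf10, which encodes the death ligand TRAIL, had 44.6 and 51.6 CPM, against 8.60 and 11.4 CPM. Tbx21 itself differed little, at 230.1 and 194 CPM in members against 181 and 175 CPM.

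Some ILC1 markers were sparse. Itga1, the integrin CD49a by which liver ILC1 are sorted, had a UMI in 4.76% of ΔMAC and 7.45% of FL/FL members. It was seen in 0.532% and 0.319% of Eomes-positive cells without S1pr5 and Cma1. Cd200r1, an inhibitory receptor, was seen in 19.8% of ΔMAC and 18.1% of FL/FL members, against 4.79% and 2.71% of the same Eomes-positive cells. Both genes were seen more often in members than in Eomes-positive cells in each library, and in under 1% of B-like cells. They did not set members apart from Kit-positive cells in the same way. There Cd200r1 was seen in 21.0% of ΔMAC and 23.8% of FL/FL cells, and Itga1 in 4.37% and 4.36%.

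On the NK side, Klra4 (Ly49D) stood at 79.7 CPM in ΔMAC and 60.0 CPM in FL/FL members, against 862 and 811 CPM in Eomes-positive cells with S1pr5 or Cma1. Gzma, encoding granzyme A, a protease of killer granules, had 1267 and 782 CPM in members against 5603 and 5762 CPM. Prf1, encoding the pore former perforin, had 44.6 and 52.8 CPM against 142 and 190.5 CPM. Gaps were narrower over all Eomes-positive cells, where Klra4 had 575 CPM in the ΔMAC and 572 CPM in the FL/FL library. Gzma had 3896 and 3556 CPM there, and Prf1 106 and 124 CPM. The NK genes were lower in members without being absent.

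Markers of other innate lymphoid cells were mixed. The ILC3-like list summed to 3.43 CPM in ΔMAC and 5.92 CPM in FL/FL members, with 4 and 3 of its 7 genes at 0. The ILC2 cytokines Il13 and Il5 were at 0 in both libraries, while Gata3, a transcription factor that ILC2 need and other lymphocytes share, had 107 and 110.3 CPM. Gata3, Areg and Hlf, the 3 ILC2-like markers measured, were at least 25% higher in members than in Cited4-negative and in Eomes-positive cells in both libraries. Of all genes, 3.99% and 8.41% were higher by that limit in those comparisons. Against Kit-positive cells 0 of the 3 were higher and 0 lower. Areg was seen in only 2.2% of ΔMAC and 3.72% of FL/FL members, so its level rests on few cells. In the FL/FL library 1 member held 51 UMIs of the ILC2-like list. Cd28, the costimulatory receptor best known on T cells, had 256 CPM in ΔMAC and 155 CPM in FL/FL members, and had 224 and 113 CPM in Eomes-positive cells without S1pr5 and Cma1.

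**Figure D2:**
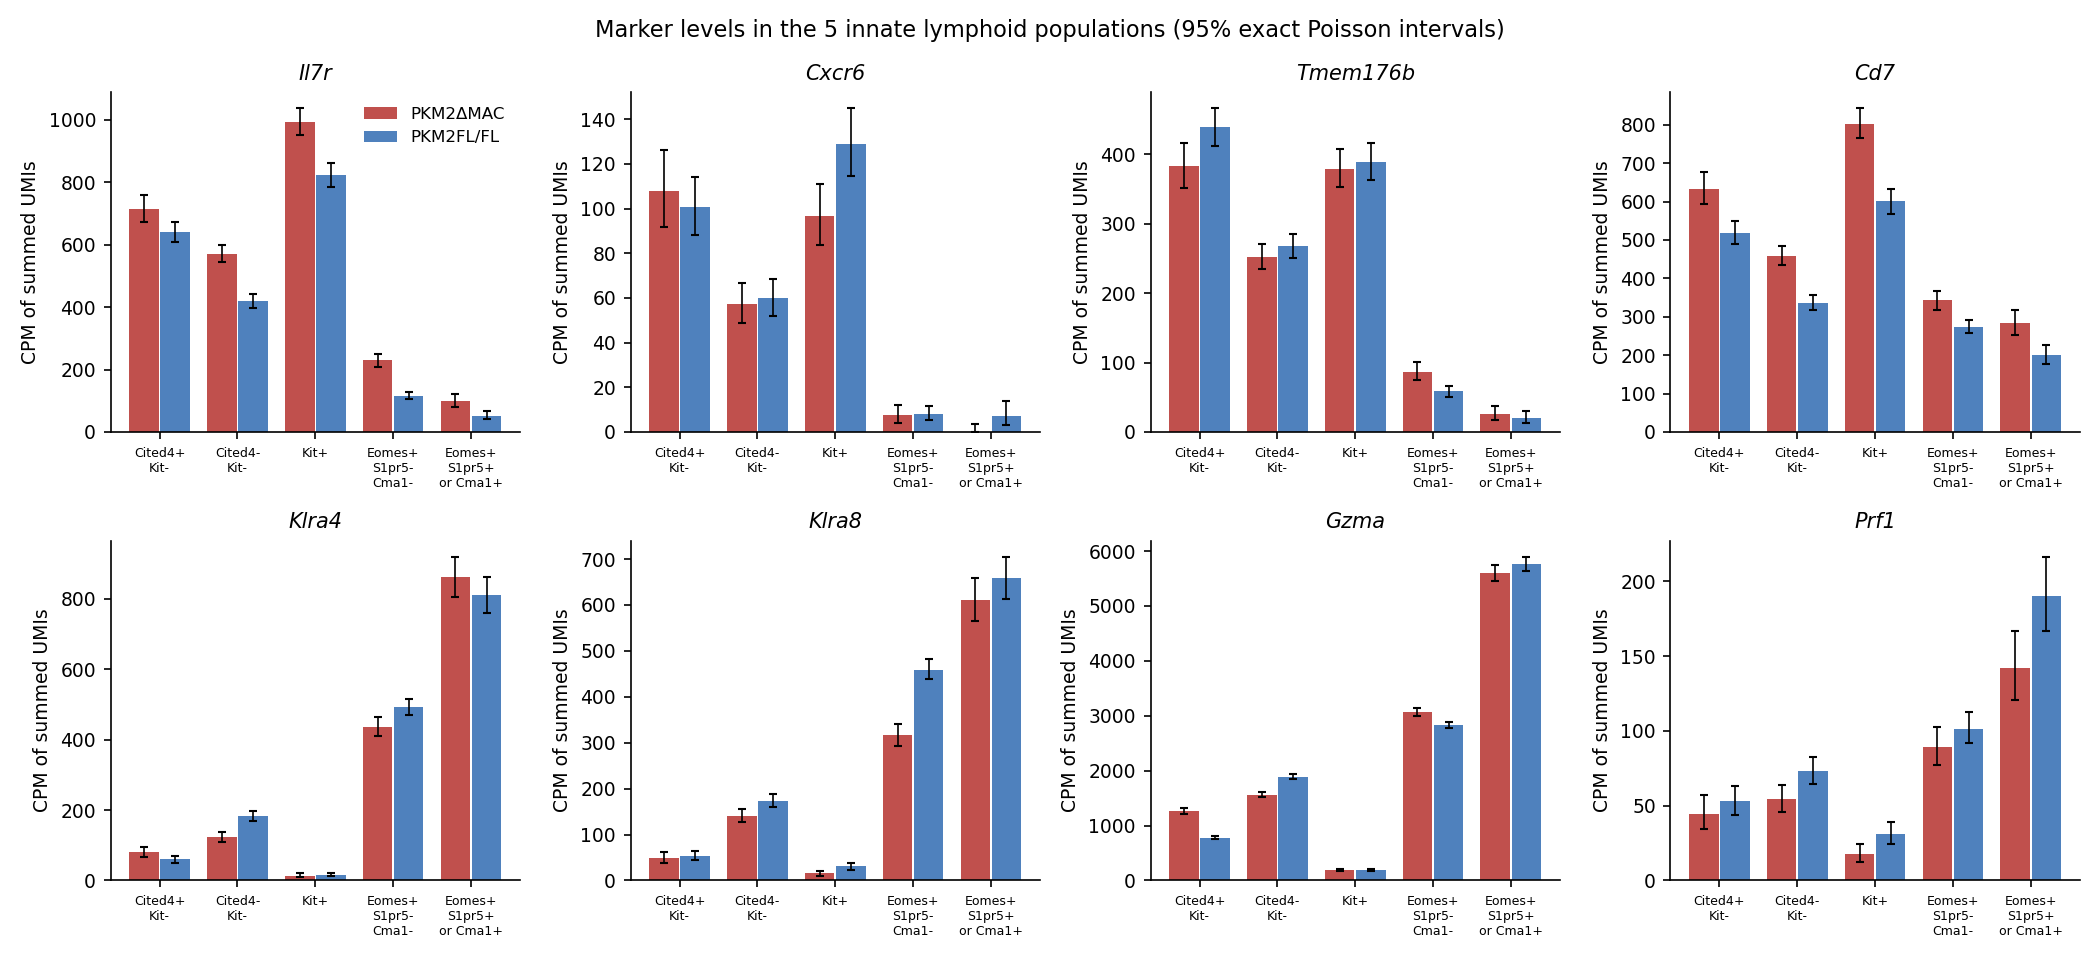
Levels of 4 ILC1-like markers (upper row) and 4 NK-like markers (lower row) in CPM of summed UMIs (vertical axes) in the 5 innate lymphoid populations (horizontal axes), with PKM2ΔMAC bars left of PKM2FL/FL bars and 95% exact Poisson intervals. The Cited4-positive cells resemble Kit-positive cells for Tmem176b and Cxcr6 and stand between Kit-positive and Eomes-positive cells for Gzma.

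Over all genes with at least 100 UMIs and 100 CPM, 16 of 1425 (1.12%) were at least 2-fold higher in members than in Eomes-positive cells in both libraries, and 14 (0.982%) at least 2-fold lower. Besides the markers above, the higher genes included Gpr183, a receptor for oxysterols that guides lymphocyte position, at 184 CPM in ΔMAC and 134 CPM in FL/FL members against 34.9 and 22.9 CPM. Rora, a nuclear receptor, had 371 and 383 CPM against 99.6 and 70.0 CPM. Ckb, the brain-type creatine kinase, had 131 and 118 CPM against 18.4 and 11.9 CPM. The lower genes were led by Eomes and 4 Klra genes, with Sh2d1a, the signalling adaptor SAP, at 49.5 and 43.1 CPM against 209 and 160.2 CPM.

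Fewer genes lay 2-fold apart between members and Kit-positive cells than in the comparisons with Eomes-positive and with Cited4-negative cells. Of 1389 genes, 2 (0.144%) were at least 2-fold higher in both libraries, namely Cited4, which the gate required, and Gzma. Gzma had 1267 CPM in ΔMAC and 782 CPM in FL/FL members against 183 and 195 CPM in Kit-positive cells. Ifng, encoding interferon gamma, had 619 and 488 CPM against 362 and 262 CPM. Klf2, a transcription factor of recirculating lymphocytes, had 657 and 506 CPM against 363 and 295 CPM.

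The 5 genes at least 2-fold lower than in Kit-positive cells (0.36%) included Kit itself and the class II antigen presentation genes H2-Ab1, H2-Aa and Cd74. Cd74 stood at 510.3 CPM in ΔMAC and 532 CPM in FL/FL members, against 1154 and 1072 CPM in Kit-positive cells. Ikzf2, the transcription factor Helios, had 151 and 142 CPM against 231 and 228 CPM. Of ILC1-like markers 3 of 19 were higher in members than in Kit-positive cells in both libraries (Cited4, Itga1 and Socs2) and 1 was lower (Il7r), whereas 12 of 16 NK-like markers were higher and 0 lower, past the limits of 25% and 20%. Of all 8611 genes measured here, 3.63% were higher and 4.01% lower by these limits, and Cited4 was fixed by the gate. Itga1 was sparse, seen in 4.76% (2.56 to 8.01) of ΔMAC members and 4.37% (2.47 to 7.11) of ΔMAC Kit-positive cells. In the FL/FL library these shares were 7.45% (5.01 to 10.6) and 4.36% (2.46 to 7.09), so the intervals overlap in both libraries.

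Cells of the same gate with no Cited4 UMI were a more mixed comparison. Of 1415 genes, 1 (0.0707%) was at least 2-fold higher in members in both libraries, and that gene was Cited4. Another 24 (1.7%) were at least 2-fold lower, led by Jchain, a plasma cell gene, at 19.9 CPM in ΔMAC and 15.2 CPM in FL/FL members against 1440.1 and 303 CPM. Cd74 had 510.3 and 532 CPM in members against 2505 and 2298 CPM in Cited4-negative cells. The Cited4-negative cells thus carried more transcripts of B, plasma and antigen-presenting cells, at a lower median depth of 4118 and 4469 UMIs.

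Short of 2-fold, 14 of 19 ILC1-like markers were at least 25% higher in members than in Cited4-negative cells in both libraries, and 11 of 16 NK-like markers were lower by at least 20%. The 14 include Cited4, which the gate fixed, and of all 9063 genes measured here 3.99% were higher and 7.57% lower. Tmem176a, the partner of Tmem176b, had 253 CPM in ΔMAC and 255 CPM in FL/FL members against 143 and 148 CPM. Cd226, encoding the activating receptor DNAM-1, had 165 and 132 CPM against 96.3 and 83.4 CPM. Socs2, an inhibitor of cytokine signalling, had 141 and 206 CPM against 79.5 and 142 CPM.

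The members differed among themselves in the same genes. Gzma was detected in 99 ΔMAC members (36.3%) and 146 FL/FL members (38.8%), a split made after the values had been seen, and in 5.80% and 8.39% of B-like cells. In members with a Gzma UMI, 5 Klra genes (Klra3, Klra4, Klra7, Klra8 and Klra9) summed to 695 CPM (626 to 770) in the ΔMAC and 587 CPM (536 to 641) in the FL/FL library. In members without one they summed to 18.4 CPM (10.7 to 29.4) and 31.6 CPM (23.3 to 41.9). Eomes-positive cells without S1pr5 and Cma1 had 1203.5 and 1412 CPM, and Kit-positive cells 66.2 and 93.7 CPM.

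Among the ILC1 markers, Il7r, Tmem176b and Cd7 ran the other way along the same split. Il7r had 360 CPM in ΔMAC and 430 CPM in FL/FL members with Gzma, and 917 and 756 CPM in those without. Tmem176b had 192 and 279 CPM with Gzma, and 492 and 528 CPM without. Tbx21 was at 228 and 226 CPM with Gzma and at 231 and 176 CPM without. Members with Gzma were not the deeper cells, with median depths of 4982 and 5382.5 UMIs against 5209 and 5896.5 UMIs in those without.

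**Figure D3:**
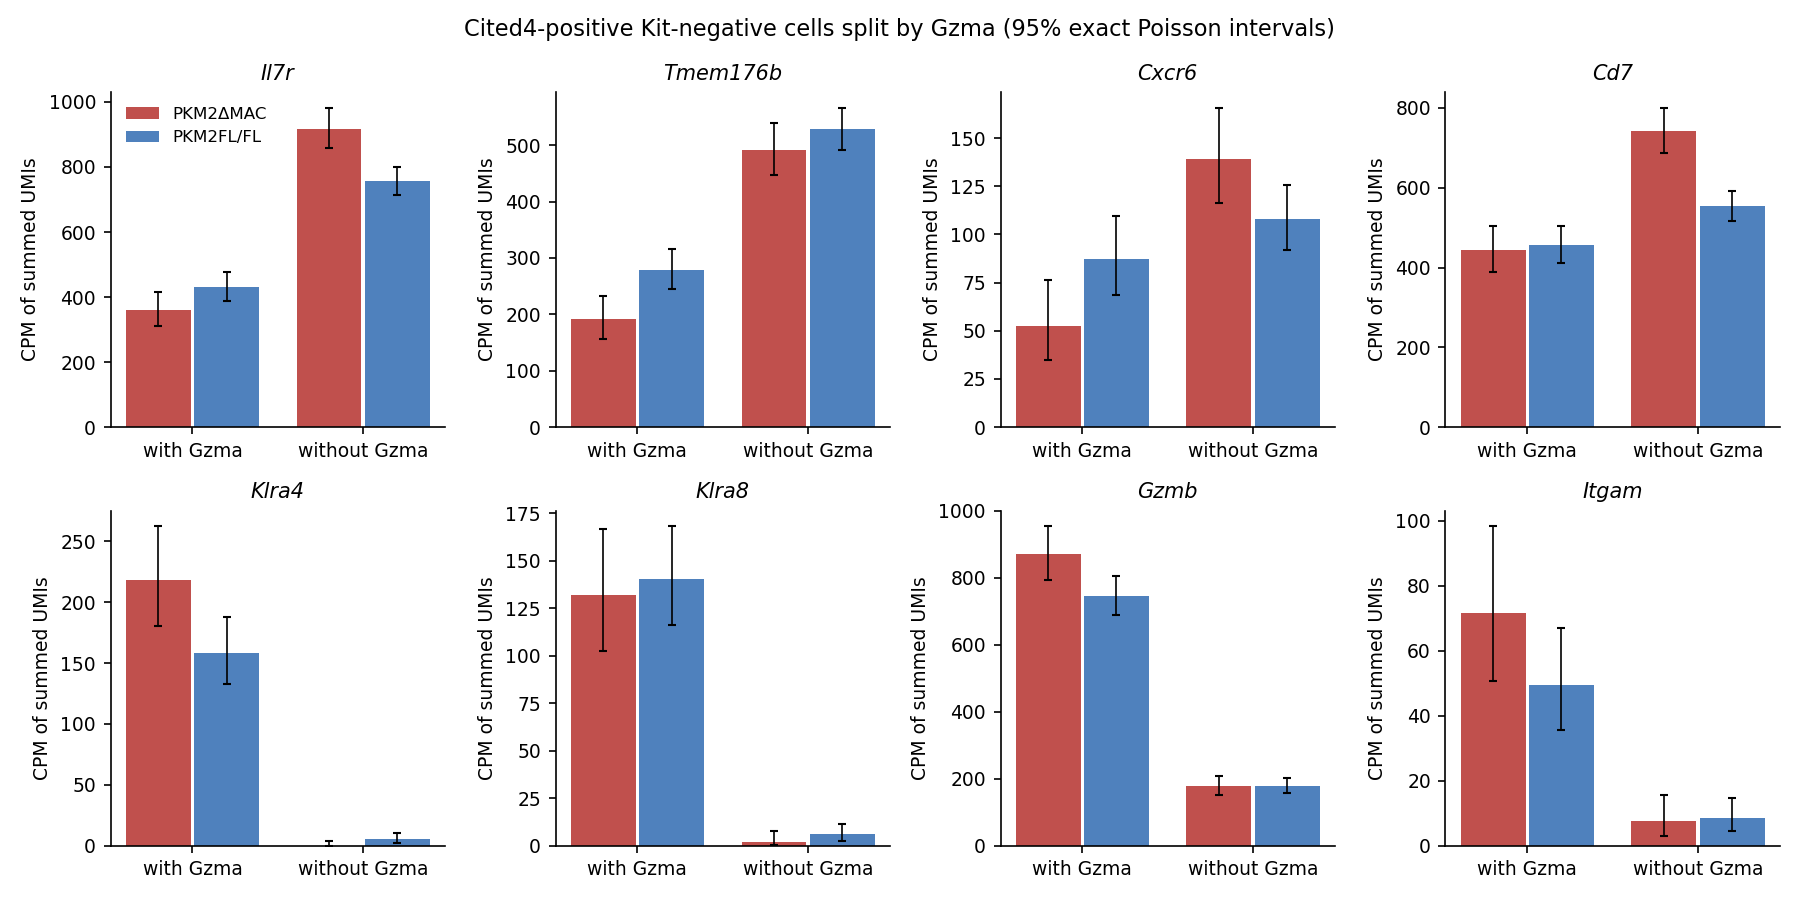
CPM of summed UMIs (vertical axes) of 8 genes in Cited4-positive Kit-negative cells with and without a Gzma UMI (horizontal axes), PKM2ΔMAC bars left of PKM2FL/FL bars, with 95% exact Poisson intervals. Klra4, Klra8, Gzmb and Itgam are higher in cells with Gzma, and Il7r, Tmem176b and Cd7 in cells without it, in both libraries.

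Members were also split by the genes of the gate itself, as a description that supports nothing. Members with Ncr1 and no Klrc1 numbered 47 in the ΔMAC and 97 in the FL/FL library and had 342 and 155 CPM of Klra4. Members with both receptors numbered 183 and 241 and had 27.0 and 29.1 CPM of Klra4. Members with 2 or more Cited4 UMIs, 103 and 167 cells, had 40.7 and 29.3 CPM of Klra4, and members with 1 Cited4 UMI had 104 and 89.6 CPM. Gzma had 1285 and 647 CPM in members with 2 or more Cited4 UMIs, and 1256 and 911 CPM in members with 1, so that it did not differ in the same direction in both libraries.

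Across 7 cell classes in both libraries (14 points of differing depth, B-like to Kit-positive), a few genes had levels that ranked most like those of Cited4. Among them were Zfp36l2 (Spearman rho 0.952), an RNA-binding decay factor, Socs2 (0.947), Rora (0.943), Whsc1l1 (0.943), a histone methyltransferase gene, and Dusp5 (0.934), a phosphatase of ERK. The points share libraries and cover few classes, and the ranking of 2534 genes is a description.

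Between the genotypes, most measured genes of the members lay within 2-fold. Of 1555 genes that reached 100 UMIs in the sum of both libraries and 100 CPM in the higher of them, 9 (0.579%) were at least 2-fold higher in the ΔMAC library and 15 (0.965%) at least 2-fold lower. Without the bile duct-like pair, 8 of 1537 (0.52%) were higher, all of them among the 9, and 6 (0.39%) lower, 5 of them among the 15. Of the 15 genes lower with all members, 5 were thus still lower by 2-fold without those 2 cells. By the mean of the cells' own CPM, 8 genes were higher and 7 lower.

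Among the genes on the higher side, Ccl4, encoding the chemokine MIP-1 beta, stood at 2268 CPM in ΔMAC members and 1035 CPM in FL/FL members, a ratio of 2.19 (2.08 to 2.31), and was detected in 71.8% and 55.1% of cells, against 15.5% and 11.4% of B-like cells. Its neighbour in function Ccl3 had 911 and 469 CPM, a ratio of 1.94 (1.79 to 2.11). Tmsb4x, encoding the actin-binding thymosin beta 4, had 21803 and 10179 CPM, a ratio of 2.14 (2.11 to 2.18). All 3 were higher in the ΔMAC library in each related population too, with log2 ratios of 0.81 to 1.36 for Ccl4, 0.42 to 1.16 for Ccl3 and 0.85 to 1.10 for Tmsb4x.

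Erdr1 had the highest ratio on that side, at 244 CPM in ΔMAC and 74.0 CPM in FL/FL members, a ratio of 3.30 (2.74 to 3.97). Its log2 ratio was 1.72 in members, 1.69 in Cited4-negative, 1.83 in Kit-positive and 1.76 and 1.49 in the Eomes-positive cells without and with S1pr5 or Cma1. Lgals1, encoding the lectin galectin-1, had 347.5 and 155 CPM, a log2 ratio of 1.16 in members, against 0.37, 0.63, 0.42 and -0.01 in the same 4 populations. Whether the gap in Lgals1 differed between populations was not tested, since the same 2 libraries gave every value.

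Other genes on the higher side were Fkbp5, a chaperone induced by glucocorticoids, at 104 CPM in ΔMAC and 50.3 CPM in FL/FL members, and Ly6c2, a surface protein of activated lymphocytes and monocytes, at 612 and 301 CPM. Spry2, an inhibitor of growth factor signalling, had 594 and 305 CPM, and Nrgn, a calmodulin-binding protein best known in neurons, 218 and 101 CPM. Abhd2, a lipase, had 115 and 52.4 CPM. Kmt2d, a histone methyltransferase, had 113 and 56.6 CPM, and Tomm22, a mitochondrial import receptor, 142 and 74.0 CPM. Their log2 ratios without the bile duct-like pair ran between 0.91 for Tomm22 and 1.19 for Abhd2.

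On the lower side, Clu, Spp1, Alb and Cp, genes of bile duct cells and hepatocytes, headed the ranking with the bile duct-like pair counted. Spp1 had 3.43 CPM in ΔMAC and 1009.9 CPM in FL/FL members, and its log2 ratio of -8.20 became -0.05 without the pair. Dbi, Atf3, Egr1 and Anxa5 moved likewise, with Egr1 at -1.63 with the pair and 0.32 without it.

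Inpp4b, Cirbp and Odc1 were lower in the ΔMAC library with and without the pair. Inpp4b, a phosphatase of phosphoinositides and an ILC1-like marker, had 45.3 CPM in ΔMAC and 127 CPM in FL/FL members, a ratio of 0.357 (0.270 to 0.468), and was seen in 17.2% and 42.8% of cells, against 5.30% and 7.81% of B-like cells. Cirbp, a cold-induced RNA-binding protein, had 96.1 and 245 CPM, a ratio of 0.392 (0.324 to 0.472). Odc1, the rate-limiting enzyme of polyamine synthesis, had 199 and 391 CPM, a log2 ratio of -0.97 with the pair and -1.02 without. Cirbp was lower by a similar amount in the related populations, with log2 ratios between -1.34 and -1.11, while those of Inpp4b ran between -1.17 and -0.55 in 3 of them. In Eomes-positive cells with S1pr5 or Cma1, Inpp4b had only 0.955 CPM in the ΔMAC and 4.05 CPM in the FL/FL library, and its ratio interval of 0.00498 to 2.11 included equal levels.

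With the ranking repeated without the pair, the lower side went on with Zc3h12a (Regnase-1), which degrades inflammatory mRNAs, at a log2 ratio of -0.98, and Phlda1, a target of growth signalling, also at -0.98. Ccm2 followed at -0.81, then Rapgef6 at -0.73, Akap13 at -0.72, Sh3kbp1 at -0.72, Maff at -0.71, Ddx6 at -0.68 and Isg15, an interferon-induced protein modifier, at -0.68. The log2 ratios of these genes were below 0 in all 4 related populations as well, between -1.41 for Maff and -0.05 for Sh3kbp1.

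**Figure D4:**
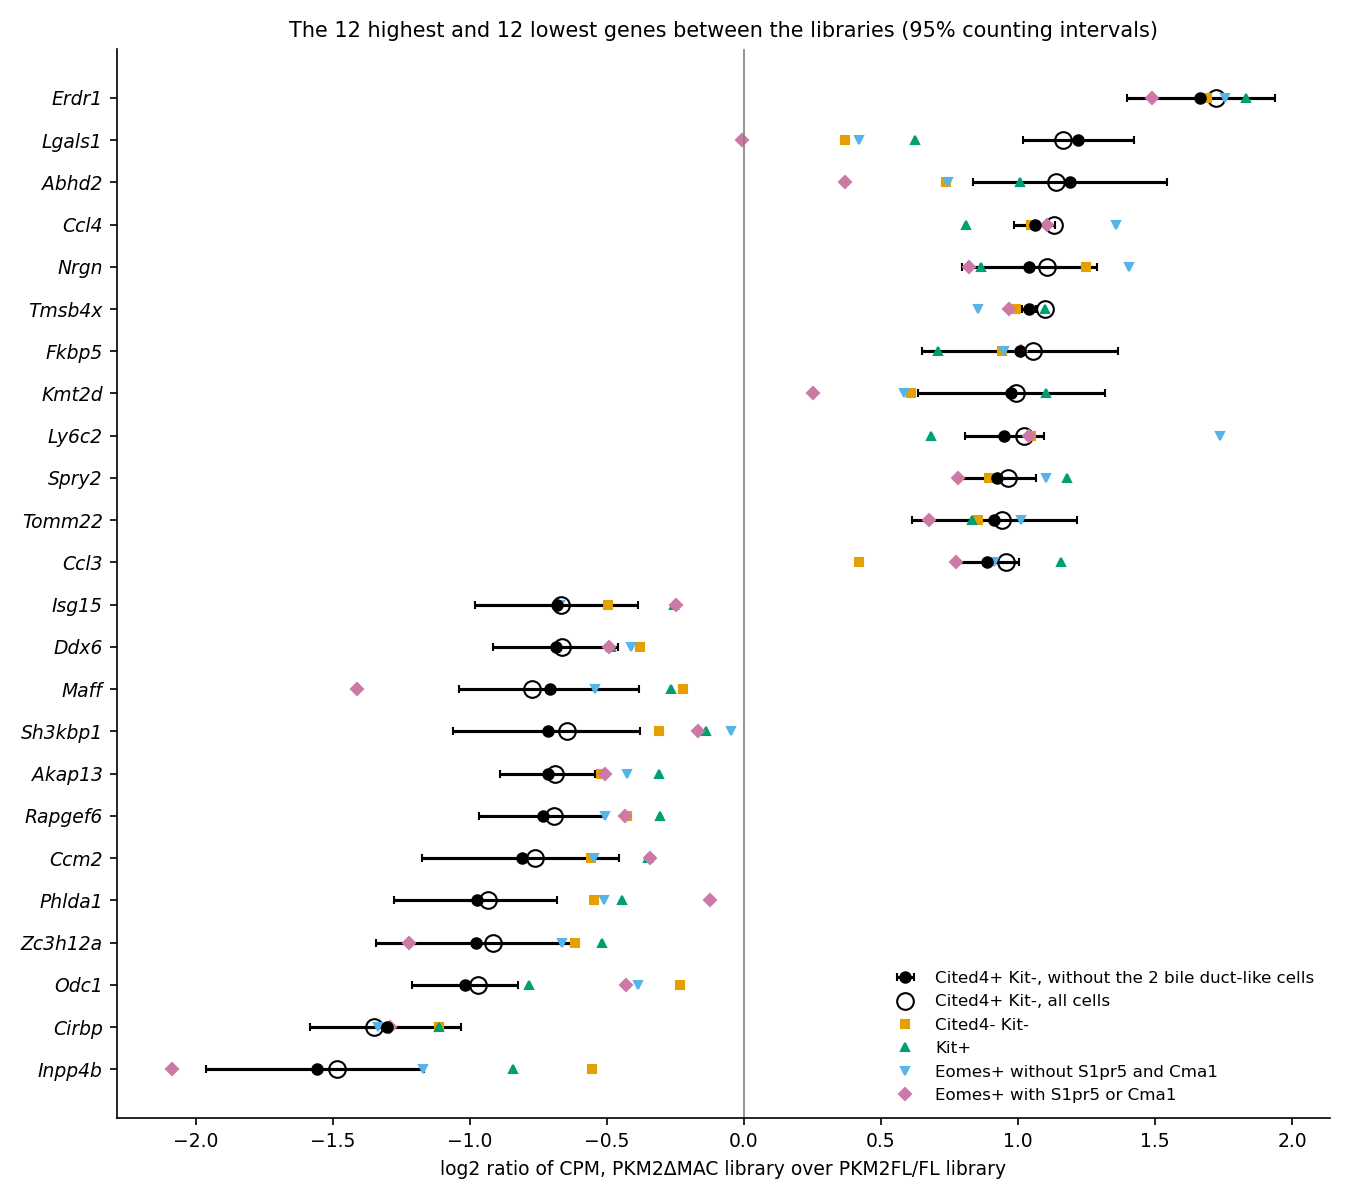
Log2 ratio of CPM in the PKM2ΔMAC library over the PKM2FL/FL library (horizontal axis) for the 12 highest and 12 lowest genes ranked without the 2 bile duct-like cells (vertical axis). Filled circles with 95% counting intervals are the Cited4-positive cells without that pair, open circles all of them, and coloured symbols the related populations of the same libraries. Erdr1 is highest at 1.67 and Inpp4b lowest at -1.56.

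Lyz2, the lysozyme gene of myeloid cells (chromosome 10), had 0 UMIs in ΔMAC members and 694 UMIs in FL/FL members, where it lay in 15.7% of cells. It lay in 0.404% of ΔMAC and 18.5% of FL/FL B-like cells, which should lack it. The FL/FL members' share of cells is thus at the level of background and is not read as expression. The highest FL/FL members held 230 and 162 of the 694 UMIs, so the summed level rests in large part on few cells. What those cells are was not tested. With the ΔMAC library set at a floor of 3 counts the ratio came to 0.00702, and the upper limit of its counting interval was 0.00866. In Cited4-negative cells it had 3.15 CPM in the ΔMAC and 917 CPM in the FL/FL library, and in Kit-positive cells 0 and 370.4 CPM.

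Among the gate genes and listed markers, Xcl1 encodes a chemokine that draws cross-presenting dendritic cells. It had 1603 CPM in ΔMAC and 837 CPM in FL/FL members, a ratio of 1.91 (1.80 to 2.03). Klrc1 had 773 and 424 CPM, a ratio of 1.82 (1.67 to 1.99). Both genes were higher in the ΔMAC library in each related population too. Their log2 ratios there ran from 0.23 to 0.92 for Xcl1 and from 0.33 to 0.69 for Klrc1. In members without the bile duct-like pair they were 0.87 for Xcl1 and 0.80 for Klrc1. Ncr1 had 544 and 453 CPM, and Cd7 634 and 519 CPM, with ratios of 1.20 (1.09 to 1.32) and 1.22 (1.12 to 1.33). Cd200r1 had 48.8 and 38.9 CPM, and the interval of its ratio, 0.907 to 1.73, included equal levels. Cited4 stood at 320.0 and 296 CPM, a ratio of 1.08 (0.959 to 1.22). Klrc1 and Ncr1 were used by the gate, which requires 1 of them.

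Pkm (chromosome 9, 59656368 to 59679375) had 166 CPM in ΔMAC members and 222 CPM in FL/FL members, a ratio of 0.749 (0.640 to 0.874). Its log2 ratio was -0.42 in members and between -0.60 and -0.41 in the related populations. The 3' tags of the assay may lie outside the floxed part, so this level checks neither the deletion nor the cells it reached.

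Gene lists were read against all 9072 genes with at least 20 UMIs, of which 14.4% were at least 25% higher in ΔMAC members and 26.9% at least 20% lower, with a median log2 ratio of -0.07. Higher and lower below mean past these limits. Without the bile duct-like pair these shares were 16% and 24.1% of 8803 genes.

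Of 13 secreted factors measured, 6 were higher and 3 lower, at a median log2 ratio of 0.27. The direction of this median turned, to -0.21, without the members that held at least 2 UMIs of other classes. Besides Ccl4, Ccl3 and Xcl1, the higher genes were Csf2, encoding GM-CSF, at 35.7 CPM in ΔMAC and 23.3 CPM in FL/FL members, Ifng at 619 and 488 CPM, and Ccl5, encoding RANTES, at 8538 and 6784 CPM. The lower genes were Lta, Areg and Tgfb1. Areg, encoding the repair factor amphiregulin, had 15 UMIs in ΔMAC and 99 UMIs in FL/FL members, in 2.2% and 3.72% of cells. Without the pair of cells, 4 of the 13 were higher and 4 lower. Ccl5 at a log2 ratio of 0.26 and Ifng at 0.27 then fell short of the limit, and Ltb passed it on the lower side.

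Granule genes were mixed, with 2 of 12 higher and 2 lower. Gzma had 1267 CPM in ΔMAC and 782 CPM in FL/FL members, a ratio of 1.62 (1.52 to 1.73), although it was detected in 36.3% and 38.8% of cells. Ctsw, encoding the protease cathepsin W, had 615 and 409 CPM, with a ratio between 1.37 and 1.65. Gzmb had 431 and 382 CPM, and Prf1 44.6 and 52.8 CPM. The NK receptor list did not hold Klrc1, whose ratio of 1.82 passed the higher limit. Of the list's 12 measured genes 0 were higher and 0 lower, and 2 were lower without the bile duct-like pair. Klrk1 (NKG2D), an activating receptor, had 1045 and 839 CPM.

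Among 16 cytokine receptors 3 were higher and 5 lower, at a median of 0.02. Il12rb2, a subunit of the IL-12 receptor, had 64.6 CPM in ΔMAC and 45.7 CPM in FL/FL members, while Il18rap, of the IL-18 receptor, had 244 and 308 CPM, and Tgfbr2, the TGF-beta receptor, 52.9 and 75.7 CPM. Of 20 lymphoid transcription factors 6 were higher and 2 lower. Tcf7 (TCF-1), a factor of long-lived and early lymphoid cells, had 151 and 103 CPM, a ratio of 1.47 (1.22 to 1.77), and Irf8 387 and 276 CPM. Runx3 and Gata3, factors of innate lymphoid identity, passed neither limit. Without the pair of cells 1 receptor was higher and 4 lower, and 6 factors were higher and 4 lower.

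Of 17 genes of residency and migration 5 were higher and 0 lower, at a median of 0.20. Without the bile duct-like pair 4 were higher, at a median of 0.13, and without members holding 2 UMIs of other classes the median was 0.09. Itga4, an integrin chain that binds VCAM-1, had 235 CPM in ΔMAC and 158 CPM in FL/FL members, a ratio of 1.49 (1.28 to 1.72), and Cxcr3 had 120.2 and 90.9 CPM. Cxcr6 and Cd69, a retention marker, passed neither limit. Of 6 checkpoint receptors 2 were higher and 0 lower, led by Cd160 at 220.5 and 154 CPM, and 1 was higher without the pair. Of 8 genes responsive to TGF-beta 4 were lower and 0 higher, at a median of -0.35, with Tgif1 at 165 and 218 CPM and Smad7 at 158 and 161 CPM. Without the pair 4 were lower and 1, Cd9, was higher, at a median of -0.29.

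Immediate early genes, switched on within minutes of a stimulus, had 11 of 14 lower and 0 higher, at a median of -0.44. Without the bile duct-like pair 6 were lower and 1 higher, at a median of -0.25. Junb had 3023 CPM in ΔMAC and 4379 CPM in FL/FL members and Btg2 908 and 1259 CPM, and both kept their log2 ratios without the pair, at -0.54 and -0.50. Fos was lower with the pair, at -0.34, and higher without it, at 0.59.

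Feedback genes of NF-kB had 4 of 11 lower and 0 higher, at a median of -0.23, and the same counts without the pair, not far from the share of all genes. Nfkbia, the inhibitor of NF-kB, had 879 CPM in ΔMAC and 1318 CPM in FL/FL members, a ratio of 0.667 (0.624 to 0.712). Tnfaip3 (A20) had 527 and 795 CPM, a ratio of 0.662 (0.608 to 0.721). Heat shock genes had the same counts, 4 of 11 lower and 0 higher, including Hsp90ab1 at 2294 and 3067 CPM. Cell survival genes had 6 of 9 lower and 0 higher. Bcl2 had 477 and 666 CPM and Bcl2l11 (BIM), which opposes it, 201 and 259 CPM. Their median was -0.36 in members, -0.36 in Cited4-negative and -0.41 in Kit-positive cells. In Eomes-positive cells without and with S1pr5 or Cma1 it was -0.26 and -0.17. In the same 4 populations the NF-kB medians were -0.31, -0.27, -0.15 and -0.60. Those of the heat shock genes were -0.22, -0.08, -0.21 and -0.11. The interferon list was mixed, with 3 of 21 higher and 8 lower, or 6 lower without the pair.

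In metabolism, 6 of 16 glycolysis genes were lower and 1 higher, at a median of -0.23, and 8 were lower and 0 higher without the bile duct-like pair. Their median was 0.05 after thinning and 0.00076 without members holding 2 UMIs of other classes. In Cited4-negative and Kit-positive cells it was -0.34 and -0.19, and in Eomes-positive cells without and with S1pr5 or Cma1 -0.20 and -0.10. Slc2a1, the glucose transporter GLUT1, had 24.0 CPM in ΔMAC and 46.1 CPM in FL/FL members, Aldoa 179 and 246 CPM and Gpi1 179 and 227 CPM, while Ldha had 299 and 272 CPM. Of 19 nuclear genes of respiration 4 were higher and 0 lower, at a median of 0.12, led by Atp5e at 651 and 476 CPM, and 6 were higher without the pair. Of 11 genes of the mitochondrial genome 1 was higher, at a median of -0.01. Lipid and cholesterol genes had 4 of 10 lower with the pair, at a median of -0.25, and 1 of 10 without it. Their median was 0.05 without members holding 2 UMIs of other classes.

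The remaining lists lay near the median of all genes. Of 10 CITED proteins and their partners 1 was higher and 1 lower, with Cited2, the family member that competes with HIF-1 for p300, at 249 CPM in ΔMAC and 253 CPM in FL/FL members, and Egln1, the oxygen sensor PHD2, at 52.2 and 75.2 CPM. Of 11 class I presentation genes 2 were lower, Tap1 at 88.6 and 136 CPM and Tap2 at 85.2 and 108 CPM. Of 13 glucocorticoid and clock genes 4 were higher and 4 lower. Within this list Tsc22d3 (GILZ) had 348 and 275 CPM, while Per1 had 126 and 128 CPM.

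**Figure D5:**
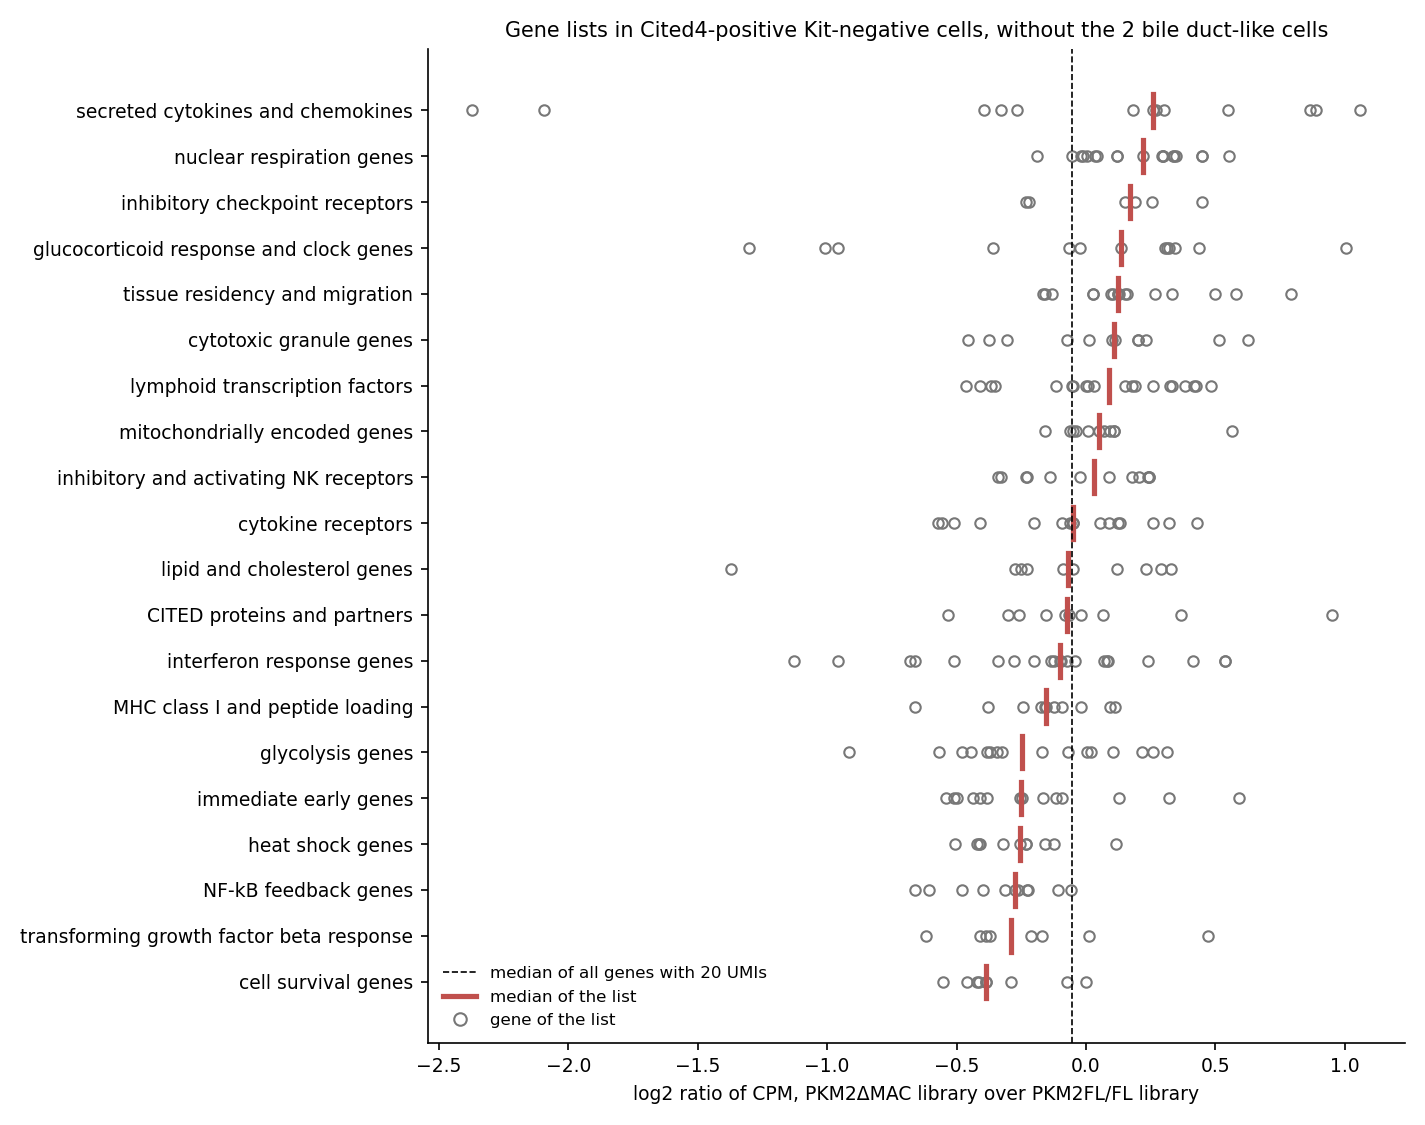
Log2 ratio of CPM in the PKM2ΔMAC library over the PKM2FL/FL library (horizontal axis) for each measured gene of 20 lists (vertical axis) in Cited4-positive Kit-negative cells without the 2 bile duct-like cells. Open circles are genes, thick lines list medians, and the dashed line the median of all genes with 20 UMIs, at -0.05. Cell survival genes have the lowest median at -0.39 and secreted factors the highest at 0.26.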

How the data were processed

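Droplet 3' single-cell counts of 1 PKM2ΔMAC and 1 PKM2FL/FL library were used. The deposited values are raw UMI counts per gene and barcode, which the authors produced using Cell Ranger 6.0.0, per the file headers. The submitters' processing notes name mm10 and Seurat 4.3.0 and do not say what Seurat did. Barcodes (8949 ΔMAC, 10054 FL/FL) held at least 502 UMIs each, with 43134027 and 54519921 UMIs in all. Cells with at least 300 genes and under 20% mitochondrial UMIs were kept (8877 and 9990). Doublets were not removed, other than in an alternative (Scrublet in scanpy 1.11.5, expected rate 0.08), nor was free RNA.

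UMIs were summed over a population's cells in each library and scaled to 1000000 (CPM), with exact Poisson, Clopper-Pearson and conditional binomial intervals at 95% (numpy 2.4.6, scipy 1.17.1, pandas 2.3.3, Python 3.11.15, figures with matplotlib 3.10.9). Ratios are ΔMAC over FL/FL, with a floor of 3 counts for a library at 0. Shares were recomputed with cells thinned to 2000 UMIs. Named genes were the gate genes and listed markers, the 12 highest and 12 lowest log2 ratios, the 10 on each side against a related population, the 6 most like Cited4, and list genes with at least 50 UMIs, some chosen after their values were seen. Mitochondrial, ribosomal, haemoglobin, immunoglobulin, Gm and Rik genes and genes over 10 times as high in a background class were left out of rankings. Related populations share the gate but for Cited4, Kit or Eomes. Members, markers and lists were chosen with earlier results of these data known. Ratios and intervals were tested on simulated independent Poisson counts. Those counts lack the uneven spread of UMIs among cells, so the intervals were not tested against it. Positions are from GENCODE M21 of the same build. T cell receptor and immunoglobulin constant genes are not used here. A few genes that these rules name are not reported here.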

Additional observations from a re-analysis of the deposited data

Results flagged for a closer look

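A few genes had opposite signs in the Cited4-positive cells and in a related population, with counting intervals apart from equal levels on both sides. Whether those differences hold was not tested, since each genotype had 1 library.

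Dbi, an acyl-CoA binding protein, had a log2 ratio of -1.89 in the Cited4-positive cells and 0.485 in Kit-positive cells. Atf3, a stress-induced transcription factor, had -1.69 in the Cited4-positive cells, 0.486 in Cited4-negative cells and 0.539 in Eomes-positive cells with S1pr5 or Cma1. Egr1, an immediate early transcription factor, had -1.63 in the Cited4-positive cells, 0.564 in Cited4-negative cells and 0.336 in Kit-positive cells.

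All of these moved with the bile duct-like pair of PKM2FL/FL cells, which held 404 Dbi, 274 Atf3 and 559 Egr1 UMIs. Without that pair the Cited4-positive cells had -0.19 for Dbi, -0.51 for Atf3 and 0.32 for Egr1.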

How the results depend on the processing

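No paired analysis was possible because each genotype had 1 library. The ratio of member shares among cells kept was 0.817, and 0.694 with 2 or more Cited4 UMIs required and 0.963 after thinning. Among Klrc1 or Ncr1 cells it was 0.936, and 0.795 with 2 or more Cited4 UMIs. Genes at least 2-fold higher numbered 9 in the main setting, 17 at 50 UMIs and 50 CPM and 110 at 20 UMIs with no CPM minimum. Genes at least 2-fold lower numbered 15 in the main setting, 31 with 2 or more Cited4 UMIs, 8 without members holding 2 UMIs of other classes, 6 without the bile duct-like pair, 8 after thinning, 7 by the mean of the cells' own CPM, 27 over a total without mitochondrial and ribosomal genes, 41 at 50 UMIs and 50 CPM and 513 at 20 UMIs. The share of 2-fold genes that were higher was 37.5%, 53.3% by own CPM and 57.1% without the pair. No scaling moved the median of all genes by more than 0.1.

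The median of the cell survival list was -0.36, and -0.51 after thinning. Genes 2-fold higher than in Cited4-negative cells numbered 1, and 2 after thinning or with 2 or more Cited4 UMIs. Those higher than in Kit-positive cells numbered 2, and 1 after thinning, and those lower numbered 5, and 1 after thinning. Signs turned without members holding 2 UMIs of other classes for Clu (1.08), Alb (0.49), Cp (0.49), Dbi (0.12), Atf3 (0.52) and Egr1 (0.19), without the pair for Cp (0.63) and Egr1 (0.32), and after thinning for Egr1 (0.15). Of 220 list medians over all alternatives, 8 left the interval of the reported median and 23 turned sign, 4 of them from a reported size over 0.2: secreted factors (-0.21), glycolysis (0.00076) and lipid genes (0.05) without members holding 2 UMIs of other classes, and glycolysis after thinning (0.05). Of the values of named genes, 60 moved, 9 turned sign and 171 stayed. Depth limits genes such as Itga1 (16 and 38 UMIs), whose ratio interval spans equal levels.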
